A study of Oncorhynchus mykiss with 24 samples.

Results

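The hemoglobins of whole rainbow trout embryos were followed across development through the 58 expressed sequence tags (ESTs, cloned fragments of cDNA) on a salmonid cDNA array whose description contains the word hemoglobin, of 16028 ESTs in all. These 58 ESTs lie on 59 of 16067 EST spots. By description 30 are alpha subunits (15 named alpha, 2 alpha-1 and 13 alpha-4), 26 are beta subunits (9 named beta, 12 beta-1, 2 beta-2 and 3 beta-4) and 2 are embryonic subunits alpha, while the word rule found no embryonic subunit beta. Of the 58, 52 passed the filters on low and missing values and were tested among 11439 ESTs. Spots are named here by the identifier and description of the array annotation, and their positions in the genome were not analysed here. The fragments come from several salmonid species, and fragments of closely related globin chains can bind the same cDNA, so the ESTs are not separate genes and do not count as replicates.

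The embryos came from 1 advanced backcross family (BC4) of Oncorhynchus mykiss, made by crossing the fast developing Clearwater (CW) clonal line repeatedly to the slow developing Oregon State University (OSU) clonal line and selecting with markers for the CW allele at the major quantitative trait locus (QTL) for embryonic development rate. OSU/CW embryos carried 1 CW allele at that locus and OSU/OSU embryos carried none, and all shared the OSU maternal background, the constant rearing temperature, and the labels name no other treatment. Single frozen embryos were taken at 15 days post fertilization (dpf, the eyed stage), 19 dpf (caudal flexing) and 28 dpf (beginning of hatch), with 4 females and 4 males of each genotype at each time, which gave 48 embryos in 12 groups. Each of the 24 arrays compared an OSU/CW with an OSU/OSU embryo of the same sex and age, 1 labelled with Cy3 and the other with Cy5, so genotypes were compared within arrays while ages and sexes were compared between arrays. The series has 1 backcross family and no fast homozygote, sex was read from a marker on the Y chromosome, and genotype at the QTL was read from linked markers.

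Hemoglobin carries oxygen in red blood cells as a tetramer of alpha and beta chains, each of which holds a heme group. Fish make distinct embryonic chains in the first wave of red cells and replace them by larval and adult chains as later waves of red cells take over. Adult rainbow trout carry several hemoglobins side by side, built from different alpha and beta chains, which differ in how strongly acid lowers their hold on oxygen. Because RNA came from whole embryos, fewer red cells and less globin RNA per cell cannot be told apart in any value below.

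Levels are given as log2 intensities after background correction, loess within each array and scaling of the average intensities between arrays, so that a level is relative to all ESTs of the array and a difference of 1 is a change of 2-fold. Differences between groups are from limma with dye as a term and a correlation of 0.533 between the embryos of an array, and a call means a Benjamini-Hochberg adjusted p under 0.05 over all 11439 ESTs. The number of arrays, 8 at each age, limits the precision. Signal over local background, as the median over EST spots in each channel, was 1.18 to 1.83 at 15 dpf, 1.2 to 3.07 at 19 dpf and 1.75 to 4.83 at 28 dpf. Red blood cell markers, which include the hemoglobins, were above the negative controls in 8 or more of the 16 channels of an age for 59, 67 and 72 of 81 ESTs at the 3 ages. In the same order of ages, the counts were 55, 85 and 102 of 106 for muscle and 23, 40 and 48 of 54 for lens. They were 59, 63 and 69 of 77 for liver and yolk and 23, 29 and 31 of 64 for leukocytes.

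The hemoglobin spots were bright, and few readings lay near the end of the scanner's scale. Before background correction their median signal was 13086 at 15 dpf, 13969 at 19 dpf and 4815 at 28 dpf, on a scale that ends at 65535, and the median over all EST spots was 7079, 5531 and 2245 at the same ages. Over the local background, the members' median signal was 2.91, 4.25 and 5.36, against 1.48, 1.81 and 2.42 for all ESTs, so the unscaled signal was lowest and the signal over background highest at 28 dpf. None of the 944 readings at each age reached a mean signal of 60000, and the highest was 53081, for the alpha EST CA039745 on array 15 in Cy3. A mean signal of 40000 or more was found in 13 readings at 15 dpf, 24 at 19 dpf and 0 at 28 dpf, so the brightest readings lay at the earlier ages. These were 1.38%, 2.54% and 0% of the hemoglobin readings. Over all EST spots the shares were 0.912%, 1.03% and 0.26%, also lowest at 28 dpf. The median pixel of a hemoglobin spot stood at the ceiling in 1 reading at 15 dpf, the beta-2 EST CK990883 on array 17 in Cy3, and above 60000 in 3 readings at 19 dpf, the beta EST CB494536 on arrays 19 (60090) and 27 (62064) and CK990883 on array 15 (64152).

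**Figure D1:**
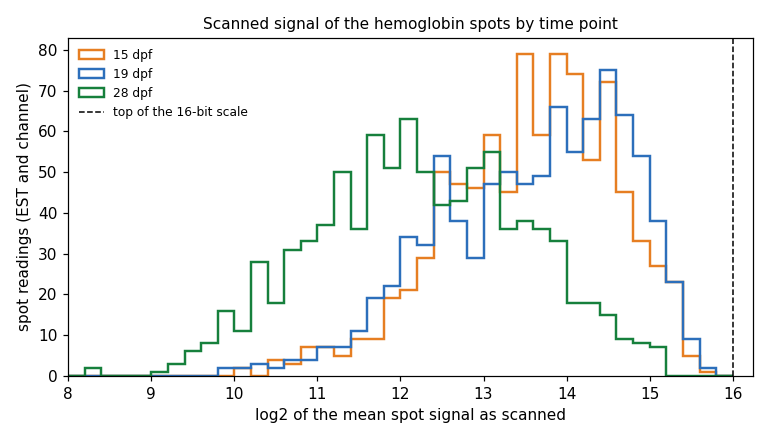
Histograms of the mean signal of the hemoglobin spots, except those of CA770045, in all channels at 15, 19 and 28 dpf (horizontal axis, log2 of the scanned signal with no background subtracted, vertical axis, number of readings), with the top of the scanner's scale as a dashed line. The readings at 28 dpf lie to the left of those at 15 and 19 dpf, and none at any age reaches the dashed line.

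From the eyed stage to the beginning of hatch, most alpha and beta hemoglobin ESTs that changed fell, while both embryonic alpha ESTs rose. Of the 52 tested, 21 were lower and 5 higher at 28 than at 15 dpf, where 19.9% of all tested ESTs were called lower and 17.9% higher. The median difference over the members was -0.46 on the log2 scale, against -0.02 over all tested ESTs. The members called lower were 13 of 27 alpha and 8 of 23 beta ESTs, and those called higher were 2 alpha ESTs, 1 beta EST and both embryonic alpha ESTs. The split of calls moved with the scaling. Without scaling between arrays, 32 were lower and 2 higher, where 38.9% of all tested ESTs were called lower and 3.8% higher. The median was then -0.82 against -0.54 over all. With each channel only centred on its median, 10 were lower and 5 higher, where 16.1% were called lower and 20.5% higher. The count called lower then lay near the share of all tested ESTs, and the median was -0.15 against 0.14. Signal over background rose over the same ages, and its part in these differences was not tested.

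Most calls lay between caudal flexing and hatch. From 15 to 19 dpf, 1 member was called higher and 0 lower, with 2.23% and 0.332% of all tested ESTs called, and the median difference was 0.17 against -0.01 over all. At an unadjusted p under 0.05 in limma, 4 members were higher and 0 lower over this interval, where 8.78% and 6.86% of all tested ESTs were. From 19 to 28 dpf, 24 members were called lower and 2 higher, with 9.14% and 7.47% of all tested ESTs called, and the median difference was -0.59 against -0.02 over all. The median over the 52 members in single embryos ran from 11.76 to 13.51 at 15 dpf (median 13.11), from 12.50 to 13.78 at 19 dpf (median 13.25) and from 11.57 to 13.02 at 28 dpf (median 12.51), so the ages overlapped in this summed view.

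**Figure D2:**
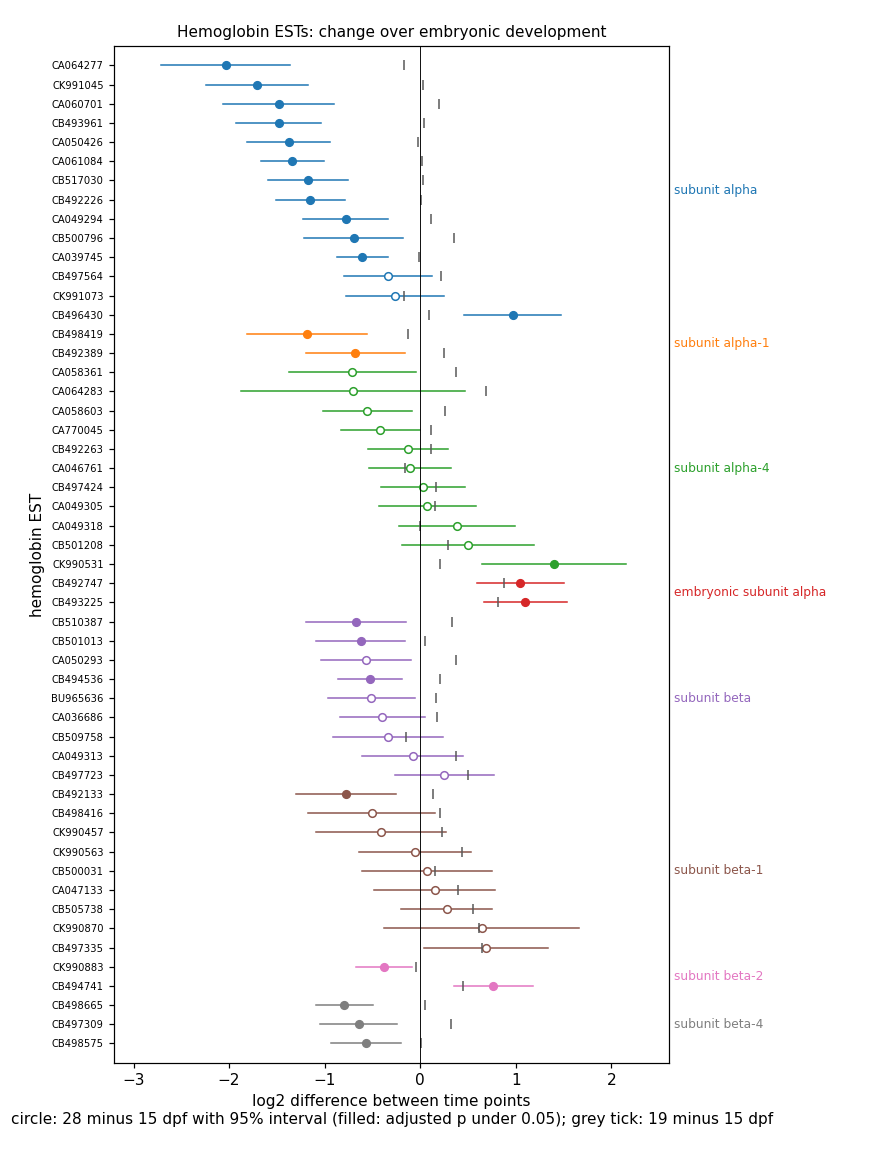
Difference in log2 intensity between 28 and 15 dpf for each of the 52 tested hemoglobin ESTs (circles, grouped by description) with 95% confidence intervals, filled for an adjusted p under 0.05, and the difference between 19 and 15 dpf as a grey tick. Both embryonic alpha ESTs lie above 0, 11 of the 14 ESTs named alpha are called below 0, and none of the 11 alpha-4 ESTs is called below 0.

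The ESTs named only hemoglobin subunit alpha, the chain type that pairs with beta chains in all adult hemoglobins, fell furthest. Of 14 tested, 11 were called lower and 1 higher at 28 than at 15 dpf, with a median difference of -1.16. Of all tested ESTs, 19.9% and 17.9% were. The alpha EST CA061084 ran from 13.81 to 14.56 at 15 dpf (median 14.18), from 13.54 to 14.78 at 19 dpf (median 14.13) and from 12.16 to 13.36 at 28 dpf (median 12.83), with 16 embryos at each age. Every embryo at 28 dpf lay below every embryo at both earlier ages. Its difference between 28 and 15 dpf was -1.34 (SE 0.16, 95% interval -1.67 to -1.01, limma adjusted p = 2.2e-08), a fold of 2.53, and that between 19 and 15 dpf was 0.01 (SE 0.16, adjusted p = 0.980).

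The largest fall was that of the alpha EST CA064277, which ran from 13.86 to 14.98 at 15 dpf (median 14.41), from 12.88 to 14.92 at 19 dpf (median 14.37) and from 8.52 to 13.81 at 28 dpf (median 12.79). The embryos at 28 dpf all lay below those at 15 dpf, and the 2 lowest, 9.04 and 8.52, were the male OSU/OSU and OSU/CW embryos that shared array 33. The difference between 28 and 15 dpf was -2.04 (SE 0.33, adjusted p = 7.4e-06 in limma) with all arrays and -1.52 without array 33. The alpha EST CK991045 ran from 12.60 to 14.79 at 15 dpf (median 13.58, n = 14), from 12.35 to 14.71 at 19 dpf (median 13.68, n = 16) and from 9.69 to 12.92 at 28 dpf (median 12.13, n = 16), with overlap between the ages, and fell by 1.71 from 15 to 28 dpf (SE 0.26, adjusted p = 3.6e-06). Embryos at 28 dpf lay below all embryos at 15 dpf for 2 members, CA061084 and CA064277, where 0.533% of all tested ESTs did so. They lay below all embryos with usable spots at 19 dpf for 3 members, CA061084, CB493961 and CB517030, where 0.175% did so. Of these 3, CB493961 had values in 12 embryos at 19 dpf and 12 at 28 dpf, and CB517030 in 14 at 19 dpf.

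Not all alpha ESTs fell. The alpha EST CB496430 was higher at 28 than at 15 dpf by 0.96 (SE 0.25, adjusted p = 0.0026 in limma) and ran from 9.76 to 11.86 at 15 dpf (median 10.72, n = 14), from 9.67 to 12.56 at 19 dpf (median 11.15) and from 10.84 to 12.93 at 28 dpf (median 11.86). The ages overlapped, and the spot stood above the negative controls in 5, 9 and 13 channels at the 3 ages, so most of its readings at 15 dpf were dim. The call was lost when arrays were not scaled to each other (difference 0.44, adjusted p = 0.27). The alpha-1 chain, a part of the trout hemoglobin that is little affected by acid, had 2 ESTs, and both fell, CB498419 by 1.19 (SE 0.31, adjusted p = 0.0027) and CB492389 by 0.68 (SE 0.26, adjusted p = 0.034) from 15 to 28 dpf.

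The alpha-4 ESTs are named for the alpha chain of the trout hemoglobin that loses oxygen in acid. Between 28 and 15 dpf, with sexes and genotypes pooled, they gave no call in the direction of the ESTs named alpha. Of 11 tested, 0 were called lower and 1 higher at 28 than at 15 dpf, where 19.9% and 17.9% of all tested ESTs were. The differences ran from -0.71 to 1.40 with a median of -0.11. From 19 to 28 dpf, however, 2 of them were called lower and 1 higher, where 9.14% and 7.47% of all tested ESTs were. Between 28 and 15 dpf, at an unadjusted p under 0.05 in limma, 3 alpha-4 ESTs were lower and 1 higher. Of all tested ESTs, 24.3% and 22.4% were. The pairwise rule of the study's methods, described further on, called CA770045 lower at 28 dpf in OSU/OSU females and in males of both genotypes. In OSU/CW females it called this EST higher. Among these females at 15 dpf, 1 read 11.51 (array 14), and the others ran from 12.78 to 12.95. At 28 dpf they ran from 12.88 to 13.46. At 15 dpf, 3 of them were in Cy5 and 1 in Cy3. The call without array 14 was not tested. CA058603 was called lower in OSU/OSU females alone. Of all tested ESTs, 6.31% were called lower in OSU/OSU females, 6.15% in OSU/CW males and 5.88% in OSU/OSU males, and 6.43% higher in OSU/CW females. The EST with the smallest difference, CB497424, ran from 9.41 to 11.64 at 15 dpf (median 10.76), from 10.49 to 11.71 at 19 dpf (median 10.69) and from 9.94 to 11.73 at 28 dpf (median 10.70, n = 14), a difference of 0.03 (SE 0.22, 95% interval -0.41 to 0.47, adjusted p = 0.931) whose sign turned with the scaling and with the arrays used. CK990531, the 1 called higher, ran from 9.31 to 11.31 at 15 dpf (median 10.76), from 8.34 to 14.10 at 19 dpf (median 10.62) and from 11.20 to 12.84 at 28 dpf (median 12, n = 14). It rose by 1.40 from 15 to 28 dpf (SE 0.37, adjusted p = 0.0030 in limma), but the call was lost with plain background subtraction (adjusted p = 0.098) and without scaling between arrays (adjusted p = 0.10), and the spot was above the negative controls in 8 of 16 channels at 15 dpf.

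As a class, the beta ESTs had a smaller median fall than the alpha ESTs, with a median difference between 28 and 15 dpf of -0.40 over 23 tested. Over the 27 alpha ESTs it was -0.68, a gap that was not tested. This order did not hold for each description. The median was -1.16 for ESTs named alpha, -0.93 for alpha-1 and -0.11 for alpha-4. It was -0.51 for ESTs named beta, 0.07 for beta-1, 0.19 for beta-2 and -0.64 for beta-4. The 23 include the dim beta-1 spots described below. All 3 beta-4 ESTs, named for the beta chain that pairs with alpha-4, were called lower. So were 3 of 9 named beta and 1 of 9 named beta-1, where 19.9% of all tested ESTs were. The beta-4 EST CB498665 had the largest difference, and ran from 13.69 to 14.65 at 15 dpf (median 14.16), from 13.85 to 14.51 at 19 dpf (median 14.26) and from 12.87 to 14.01 at 28 dpf (median 13.37). Its embryos at 28 dpf lay mostly below the others with some overlap, and the difference of -0.79 between 28 and 15 dpf (SE 0.15, adjusted p = 5.9e-05 in limma) was not called when channels were only centred on their median (-0.35, adjusted p = 0.20). The other beta-4 ESTs, CB497309 and CB498575, fell by 0.64 (SE 0.20, adjusted p = 0.010) and by 0.57 (SE 0.18, adjusted p = 0.012).

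The beta-1 ESTs, named for the chain that pairs with alpha-1, had a median difference of 0.07 between 28 and 15 dpf. Most of them were dim. At 15 dpf, CA047133 and CB505738 stood above the negative controls in 3 of 16 channels, CK990870 and CK990457 in 5, CB497335 in 6 and CB500031 in 9. CB498416 did so in 12, and CK990563 and CB492133 in 13. The only one called, CB492133, fell by 0.77 (SE 0.26, adjusted p = 0.017 in limma). The beta EST with the smallest difference, the beta-1 EST CK990563, ran from 10.86 to 12.97 at 15 dpf (median 11.47), from 11.14 to 13.36 at 19 dpf (median 12.04) and from 10.70 to 12.36 at 28 dpf (median 11.63), and differed by -0.05 (SE 0.29, 95% interval -0.64 to 0.53, adjusted p = 0.909), with a sign that turned when single arrays were left out. The beta-2 ESTs moved in opposite directions. CK990883 ran from 14.83 to 15.31 at 15 dpf and from 14.14 to 15.00 at 28 dpf and fell by 0.38 (SE 0.14, adjusted p = 0.033 in limma). Its scanned signal was 40000 or more in 13 channels, none of them at 28 dpf, so its levels at the earlier ages lay near the end of the scale, and with those readings set missing it was no longer tested. The other beta-2 EST, CB494741, above the negative controls in 6 channels at 15 dpf and 16 at 28 dpf, rose by 0.76 (SE 0.20, adjusted p = 0.0032). Brightness differs between spots for reasons of the spot itself, so no level of a spot is ranked against that of another.

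Both embryonic alpha ESTs rose, and most of their difference lay between 15 and 19 dpf. CB493225 ran from 11.77 to 14.15 at 15 dpf (median 13.43, n = 16), from 13.54 to 14.65 at 19 dpf (median 14.21, n = 10) and from 14.01 to 15.04 at 28 dpf (median 14.43, n = 14). CB492747 ran from 11.27 to 13.96 at 15 dpf (median 13.53, n = 14), from 13.81 to 14.73 at 19 dpf (median 14.32, n = 12) and from 13.98 to 15.14 at 28 dpf (median 14.32, n = 16). For CB492747 the embryos at 28 dpf lay above all those with a usable spot at 15 dpf, which 2.33% of all tested ESTs did. The margin was narrow, 13.98 against 13.96. For CB493225 the 2 ages overlapped slightly.

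From 15 to 19 dpf, CB492747 rose by 0.88 (SE 0.24, adjusted p = 0.038 in limma), the only hemoglobin call over this interval, and CB493225 was higher by 0.81 (SE 0.24, adjusted p = 0.054), just outside the threshold. The call of CB492747 was not firm, since 0 to 2 members were called when each array was left out in turn. From 15 to 28 dpf, CB493225 rose by 1.10 (SE 0.21, 95% interval 0.67 to 1.53, adjusted p = 1.3e-04), a fold of 2.14, and CB492747 by 1.05 (SE 0.23, 95% interval 0.59 to 1.5, adjusted p = 4.3e-04), a fold of 2.07. Between 19 and 28 dpf the differences were 0.28 (SE 0.24, adjusted p = 0.458) and 0.17 (SE 0.23, adjusted p = 0.678). Both rises from 15 to 28 dpf kept their call under each alternative of background, scaling, filter, dye term, correlation and variance in which these ESTs were tested, and without each array in turn, with 0.82 as the lowest difference of CB492747 (without array 41) and 0.94 of CB493225 (without array 14) among the latter. Under the pairwise rule of the study's methods, described further on, CB493225 was called between 28 and 15 dpf in each of the 4 combinations of sex and genotype and CB492747 in none.

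**Figure D3:**
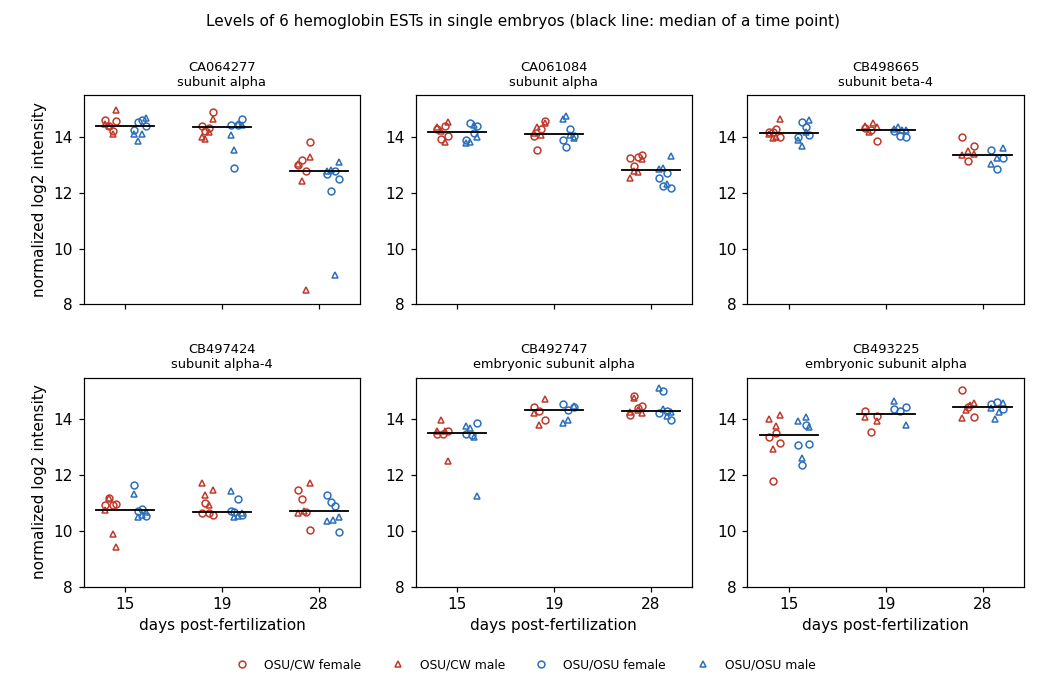
Normalised log2 intensity of 6 hemoglobin ESTs in each embryo by age, with colour for genotype, circles for females, triangles for males and a black line at the median of each age. CA061084 falls to between 12.16 and 13.36 at 28 dpf, below every younger embryo. CB492747 at 28 dpf, between 13.98 and 15.14, lies narrowly above every embryo with a usable spot at 15 dpf.

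The 6 members that were not tested are accounted for by their levels alone. CB501216 (alpha) and CB515375 (alpha-4) were bright but had too few arrays with usable spots at 28 dpf, with medians of 14.15, 14.41 and 12.80 and of 13.21, 13.38 and 12.94 at 15, 19 and 28 dpf. CA041804 (beta-1) had the same shortage, with medians of 12.53, 12.29 and 11.63. CB516893 (alpha-4), CA049299 (beta-1) and CA058163 (beta-1) stood above the negative controls in at most 9 of 16 channels at any age, with medians between 9.09 and 10.51. CA770045, the EST with 2 spots, differed between its spots by a median of 0.26 over 42 channels.

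The change from 15 to 28 dpf was also counted within each genotype and each sex. The counts in OSU/CW embryos and in females lay nearer the share of all tested ESTs than those in OSU/OSU embryos and in males. Members called lower numbered 12 of 52 in OSU/CW embryos, where 17.5% of all tested ESTs were called lower, and 23 in OSU/OSU embryos, where 15.6% were. They numbered 11 in females, with 14.2% of all, and 11 in males, with 8.21% of all. In limma's test of the difference between genotypes in this change, 0 members were called (smallest adjusted p = 0.83). At an unadjusted p under 0.05 the fall was smaller in OSU/CW for 10 members and larger for 1, where 3.25% and 2.33% of all tested ESTs moved these ways, and the median of the difference was 0.24. Between the sexes 0 members were called, where 0.00874% of all tested ESTs were called lower, and 0 had an unadjusted p under 0.05 for this change, where 3.26% and 2.54% of all were higher and lower.

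Genes that serve heme and red cells were described by a list of words for heme synthesis, iron handling, carbonic anhydrase, the red cell membrane and other globins, which held 147 ESTs, 118 of them tested. From 15 to 28 dpf, 36 were called lower and 7 higher, with a median difference of -0.24, beside 19.9% lower, 17.9% higher and a median of -0.02 over all tested ESTs. Ferritins, which store iron, had 17 of 45 called lower and 2 higher, carbonic anhydrases, which convert carbon dioxide to bicarbonate in red cells and elsewhere, 5 of 12 lower and 0 higher, and red cell membrane words 6 of 21 lower and 0 higher. Of these 6, 4 were ankyrin repeat proteins, which the word ankyrin brought into the list and which are not known as red cell membrane proteins, and the others were band 3 and ankyrin-1. Heme synthesis enzymes had 4 of 9 lower and 1 higher, and transferrins, which carry iron in plasma, 2 of 17 lower and 2 higher, shares below those of all tested ESTs.

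The largest falls in the list were those of CB494301, a carbonic anhydrase, with a difference of -2.41 (SE 0.21, adjusted p = 2.8e-10 in limma), of CB512359, an ankyrin repeat domain-containing protein, with -2.21 (SE 0.44, adjusted p = 1.6e-04), and of CB511006, carbonic anhydrase 2, with -1.46 (SE 0.17, adjusted p = 7.3e-09). CB511006 ran from 13.39 to 14.22 at 15 dpf and from 11.92 to 12.89 at 28 dpf, with no overlap. The largest rises were those of 2 plasma proteins and of heme-binding protein 2. The serotransferrin CB497986 rose by 2.69 (SE 0.22, adjusted p = 6.0e-12), from 11.13 to 12.98 at 15 dpf to 14.00 to 15.08 at 28 dpf, with no overlap, hemopexin CB509819, which binds free heme, by 1.46 (SE 0.34, adjusted p = 7.2e-04), and heme-binding protein 2 CB515548 by 1.14 (SE 0.22, adjusted p = 9.8e-05).

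The first enzyme of heme synthesis, 5-aminolevulinate synthase, is made from an erythroid gene and a general one. The erythroid form, on CA041067 and CB496569, differed by 0.17 on each EST between 28 and 15 dpf (SE 0.28 and 0.21) and was not called. The ESTs of the general form did not move together, since CA053062 fell by 1.23 (SE 0.22, adjusted p = 4.6e-05 in limma), CK990383 rose by 0.60 (SE 0.22, adjusted p = 0.033), and CB499194 and CB494427 differed by 0.32 and -0.13 and were not called. The next enzyme, delta-aminolevulinic acid dehydratase on CA064476, fell by 1.08 (SE 0.18, adjusted p = 6.2e-06). These ESTs were singled out after their values were seen.

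The genotype comparison asked whether embryos with the CW allele differed in hemoglobin from their OSU/OSU sibs of the same age. No member was called at any age, and 0% of all tested ESTs were called at each. At 15 dpf, 4 members were higher in OSU/CW at an unadjusted p under 0.05 and 0 lower, where 2.68% and 2.82% of all tested ESTs were, and the smallest p values were those of CB492133 (beta-1, 0.57, SE 0.21, adjusted p = 0.826 in limma) and CK991073 (alpha, 0.45, SE 0.21, adjusted p = 0.871). At 19 dpf, 1 was higher and 1 lower at that level, where 3.37% and 2.54% of all were, CA050426 (alpha, 0.35, SE 0.14, adjusted p = 0.764) and CB494741 (beta-2, -0.33, SE 0.15, adjusted p = 0.83).

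At 28 dpf the members leaned to OSU/CW without passing the threshold. Of 52, 47 had a difference above 0, where 51.2% of all tested ESTs did, 17 had an unadjusted p under 0.05 in that direction and 0 in the other, where 2.83% and 1.83% of all did, and the median was 0.31 against 0.01. The smallest p values belonged to CA058603 (alpha-4, 0.79, SE 0.18, 95% interval 0.42 to 1.15, adjusted p = 0.305 in limma) and CA049313 (beta, 0.75, SE 0.21, adjusted p = 0.516). The embryonic alpha ESTs showed differences of 0.01 and 0.05.

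Within the sexes, the lean was seen between females. Between female embryos at 28 dpf, 48 of 52 members had a difference above 0, where 50.2% of all tested ESTs did, and 26 had an unadjusted p under 0.05 with higher values in OSU/CW, where 3.05% of all did, with a median of 0.56. Between male embryos the median was -0.02 and 1 member had an unadjusted p under 0.05 with higher values in OSU/CW, where 2.03% of all did. No member was called in either sex, where 0.00874% of all tested ESTs were called higher in OSU/CW in females and 0% in males. The closest in females were CA058603 (difference 1.26, SE 0.25) and CA049313 (1.58, SE 0.32), both at an adjusted p of 0.059 in limma, and then CB493961 and CA061084 (alpha) and CA049305 (alpha-4), each at 0.076. The test of the difference between the sexes in the genotype effect called 0 members (smallest adjusted p = 0.869), with 15 members at an unadjusted p under 0.05 in the direction of females and 0 in the other, where 1.96% and 2.14% of all tested ESTs were.

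In single females at 28 dpf, CA058603 read 13.54, 13.27, 13.28 and 13.09 in the OSU/CW embryos of arrays 26, 36, 38 and 39 and 12.36, 10.90, 12.88 and 12.01 in their OSU/OSU partners. All 4 OSU/CW females lay above all 4 OSU/OSU females. This EST and CA061084, given next, were among the closest in females, so a separation in the same embryos adds no evidence. The share of all tested ESTs separated in this way was not counted. In males the same EST read 12.60, 12.90, 13.22 and 12.84 in the OSU/CW embryos of arrays 23, 28, 33 and 37 and 11.84, 12.56, 12.92 and 12.99 in their partners, with overlap. The alpha EST CA061084 read 13.27, 12.98, 13.28 and 13.36 in OSU/CW females and 12.53, 12.25, 12.72 and 12.16 in OSU/OSU females of the same arrays, without overlap, and in males its values ran from 12.53 to 13.21 and from 12.34 to 13.34. The embryonic alpha EST CB493225 read 15.04, 14.45 and 14.09 in OSU/CW females of arrays 26, 36 and 39 and 14.56, 14.62 and 14.39 in their partners, with overlap and with no usable spot on array 38.

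The genotype difference in females was uneven over the arrays. The median log ratio of OSU/CW over OSU/OSU over the members was 0.32, 0.85, 0.06 and 0.99 on arrays 26, 36, 38 and 39, and 0.41, -0.40, 0.20 and -0.08 on the male arrays 23, 28, 33 and 37. It was above 0 on 6 of 8 arrays at 28 dpf, 5 of 8 at 15 dpf and 4 of 8 at 19 dpf. On both of the female arrays with the largest ratios, 36 and 39, the OSU/CW embryo was in Cy3, and on 26 and 38 it was in Cy5. Across all arrays the members' Cy5 signal was below Cy3 by a median of 0.15, with 40 of 52 below 0, against a median of 0.01 above for all tested ESTs. The dyes were balanced between genotypes at 28 dpf, with 2 embryos of each sex and genotype in each dye, but members with a missing spot lack this balance. In females at 28 dpf the mean of the array medians was 0.92 with OSU/CW in Cy3 and 0.19 with it in Cy5. In males the 2 means were 0.17 and -0.10. The part of the dyes in the genotype difference was not tested. Without array 39, 13 members rather than 26 had an unadjusted p under 0.05 in females, and without array 23 or 39, 7 rather than 17 in both sexes together.

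Under the rule of the study's methods, a false discovery rate of 0.05 for an overall test of the 12 groups followed by 0.2 over 66 pairwise contrasts, 17 of 52 members passed the overall test, where 13.7% of all ESTs did. Of the 52, 14 were lower in OSU/OSU than in OSU/CW females at 28 dpf, where 1.18% of all tested ESTs were called lower. Between males the number was 0, where 0.769% were. Taking only ESTs that passed the overall test, the female contrast called 14 of 17 members lower and 135 of 1566 ESTs in all. The male contrast called 0 and 88 of them lower. An EST can pass the overall test through differences between ages alone, and the rate of 0.2 holds for the 66 contrasts together. The 14 members were 7 ESTs named alpha, 2 alpha-4 and 5 beta ESTs, and none of the embryonic alpha ESTs.

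**Figure D4:**
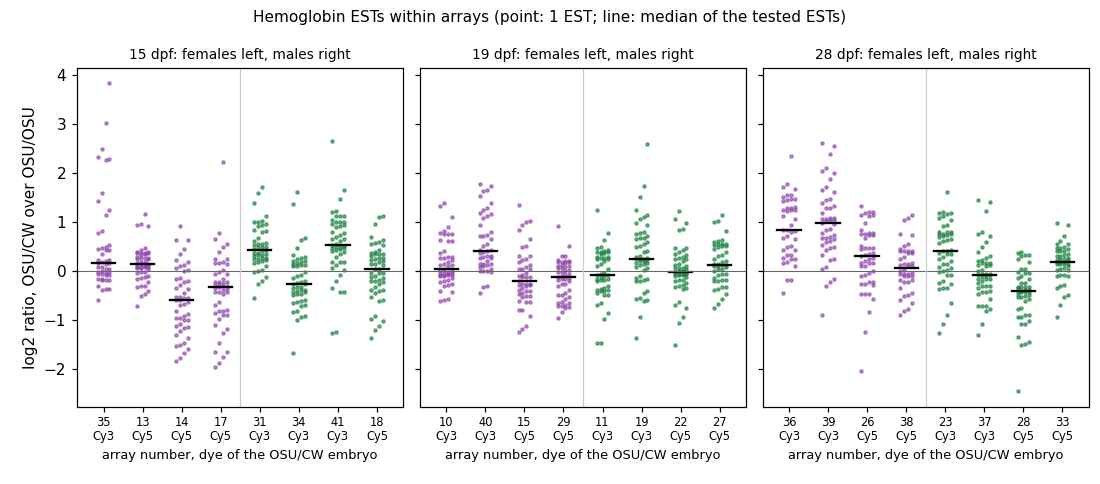
Log2 ratio of OSU/CW over OSU/OSU for each tested hemoglobin EST (points) on each of the 24 arrays, by age, with females left and males right, the median of the members as a black line and the dye of the OSU/CW embryo under each array number. At 28 dpf the medians are 0.32, 0.85, 0.06 and 0.99 on the female arrays 26, 36, 38 and 39 and lie between -0.40 and 0.41 on the male arrays.

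Between the sexes, 0 hemoglobin ESTs were called at any age, where 0.00874% of all tested ESTs were called lower in females at 15 and at 28 dpf and 0% at 19 dpf. At 15 dpf, 2 members were higher and 2 lower in females at an unadjusted p under 0.05, where 2.74% and 3.76% of all tested ESTs were, with CA770045 (alpha-4, -0.72, SE 0.29, adjusted p = 0.712 in limma) and the embryonic alpha CB493225 (-0.63, SE 0.29, adjusted p = 0.754) the closest. At 19 dpf, 1 was higher and 1 lower, where 3.95% and 4.9% of all were, CA039745 (alpha, 0.38, SE 0.18, adjusted p = 0.548) and CB501208 (alpha-4, -0.99, SE 0.47, adjusted p = 0.540). At 28 dpf, 1 was higher and 0 lower, where 2.03% and 1.27% of all were. That 1 was CA064277 (0.98, SE 0.47, adjusted p = 1.0), whose difference was -0.05 without array 33, and the next was CB497309 (beta-4, -0.42, SE 0.29, adjusted p = 1.0). Sexes sat on different arrays, so the standard errors of these differences, with a median of 0.34 to 0.35, were wider than those between genotypes, 0.19. Under the methods' rule at 28 dpf, 4 members were lower in males than in females of OSU/CW (CB492133, CB494536, CK991045 and CA064277), where 0.533% of all tested ESTs were. The males of CA064277 include the reading of 8.52 on array 33, next to 12.42, and this call was not tested without that array. In OSU/OSU, 4 others were higher in males (CA050426, CA061084, BU965636 and CB497309), where 0.542% were, so the calls ran in opposite directions in the 2 genotypes.

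The hemoglobin ESTs moved together from array to array. The log ratio of each member over the 24 arrays correlated with the median of the other members at a median r of 0.64, with 49 of 52 above 0 and CA046761 (alpha-4) the lowest at -0.40, against 0.01 for the other tested ESTs with the members' median. These points share arrays, dyes and, among the globins, sequence, so the correlation is a description. Over the single embryos, ESTs that are not members and have a description were ranked by how closely their level followed the members' median. The closest were CB516494 (a transforming growth factor beta inducible early response protein, r = 0.84, n = 42) and CA055453 (glutathione peroxidase 2, r = 0.77, n = 44). Next were CB497624 (cytoplasmic actin, r = 0.76, n = 46), CB491302 (mitochondrial uncoupling protein 2, r = 0.75, n = 46) and CB508410 (a subunit-like protein of NADH dehydrogenase, r = 0.75, n = 48). With the mean of each age removed, the r of these ESTs were 0.72, 0.65, 0.52, 0.45 and 0.63. Other ESTs were then closest, first the S100-A1 ESTs CK990568 (r = 0.77) and CB504209 (r = 0.76).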

How the data were processed

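Total RNA of 48 single embryos was hybridised to 24 cDNA arrays. The authors deposited 1 scanner table per channel with spot and background intensity on a linear scale, not subtracted. The deposited value table holds scores, a quotient of centred logs of both channels, and was not used for tests. In R 4.3.3 with limma 3.58.1, intensities were corrected by normexp (offset 50), normalised by loess within arrays and by Aquantile between them. Spots marked poor were set missing and spots of 1 EST averaged. ESTs were tested if above the 90th percentile of 1003 negative control spots in 16 of 48 channels, with at least 2 arrays per sex and age. The model had 12 treatments, dye and array as a random effect, after the study's methods. The fit was tested on simulated data. Members, lists and tests were chosen with earlier results of these data known. Named members are, per class, the largest and smallest change from 15 to 28 dpf, those called, and the 2 smallest p per genotype and sex contrast; others were chosen after seeing values. Alternatives covered background, scaling, filters, ceiling, dye, array, variance, call rule and single arrays. Each channel held a different embryo per the labels.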

Additional observations from a re-analysis of the deposited data

Results flagged for a closer look

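Among the named hemoglobin ESTs, 11 of 144 groups of embryos (7.64%) were flagged by Dixon's ratio, where chance gives about 1 in 20 groups. The ratio is the gap of 1 embryo to its nearest over the range of the group, so a flag need not mean a large distance. The flagged 11.16 of CB497424 lay next to 10.96. The 8.52 of CA064277 in the male OSU/CW embryo of array 33, next to 12.42, was not flagged (ratio 0.82). The alpha EST CA064277 read 12.88 in the female OSU/OSU embryo of array 15 (19 dpf) and 9.04 in the male OSU/OSU embryo of array 33 (28 dpf). The alpha-4 ESTs stood apart on 3 arrays. CB497424 read 11.16 in the female OSU/CW embryo of array 14 (15 dpf) and 11.44 in the male OSU/OSU embryo of array 11 (19 dpf), CA770045 read 11.51 in the same female OSU/CW embryo of array 14, and CB501208 read 10.40 in the male OSU/CW embryo of array 37 (28 dpf). The beta-1 EST CK990563 stood apart in 3 OSU/OSU embryos, at 12.97 (array 17, female, 15 dpf), 11.93 (array 39, female, 28 dpf) and 10.70 (array 23, male, 28 dpf). The beta-4 EST CB497309 read 13.87 in the male OSU/OSU embryo of array 11 (19 dpf). The embryonic alpha EST CB492747 read 11.27 in the male OSU/OSU embryo of array 41 (15 dpf). Without both embryos of that array, the other an OSU/CW male at 12.495, the rise of CB492747 to 28 dpf was 0.82 in place of 1.05. No cause of these readings was tested.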

How the results depend on the processing

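Without scaling between arrays, the median over all tested ESTs moved to -0.54 for 28 minus 15 dpf and -0.61 for 28 minus 19 dpf (sex, 0.22 at 19 and -0.32 at 28 dpf), and with channels only centred on their median to 0.14 and 0.11. The members' medians were then -0.82 and -1.07 without scaling and -0.15 for 28 minus 15 dpf with centring. Members called lower from 15 to 28 dpf numbered 32 without scaling, 10 with centring and 2 of the 4 members left when detection in all channels was asked (median -0.78). Of all tested ESTs, 38.9%, 16.1% and 25.3% were called lower. From 19 to 28 dpf they numbered 37, 14 and 3, where 40.3%, 6.74% and 16.4% of all tested ESTs were called lower. Members called higher from 15 to 28 dpf numbered 2 without scaling, 2 under the methods' rule and 0 with detection in all channels. Without scaling 3.8% of all tested ESTs were called higher, and with detection in all channels 8.18%. From 19 to 28 dpf 1 was called higher without background subtraction, with plain subtraction, without a dye term and with the compared arrays alone, and 0 without scaling, with detection in all channels and under the methods' rule. From 15 to 19 dpf 2 were called higher with quantile normalization, with poor spots kept, without a dye term, without correlation within arrays, with a robust prior and under the methods' rule, and 0 without scaling, with centring, with signals of 40000 or more set missing (chosen after seeing the data), with detection in all channels and with the compared arrays alone. CB497424 turned to -0.58 for 28 minus 15 dpf without scaling. Genotype calls at 28 dpf rose from 0 to 4 without background subtraction (CA058603 and CA049313 among them). In females they rose to 10 without background subtraction, 4 without scaling, 4 with poor spots kept and 6 with a robust prior. With detection in all channels, 3 of the 4 members left were called in females. Members higher in OSU/CW at an unadjusted p under 0.05 numbered 9 with centring, 11 with quantile normalization and 5 without correlation within arrays. In females they numbered 17 with centring and 11 without correlation. With detection in all channels they were 4 of the 4 members left, both in all embryos and in females. For the difference between sexes they were 3 of these 4 members (median 0.88), and 7 members without correlation. The methods' rule gave 3, 1 and 14 genotype calls and 4, 1 and 8 sex calls at 15, 19 and 28 dpf, over the pairwise contrasts. In single contrasts of genotype or sex at 15 and 19 dpf, it called 0.682% to 3.18% of all tested ESTs in 1 direction. The shares at 28 dpf are given above. For the other counts under these settings and without single arrays, the share of all tested ESTs is not given. The median sex difference at 28 dpf was -0.26 without scaling. With each array left out in turn, members called higher ranged from 0 to 2 for 19 minus 15 dpf (0 without arrays 10, 11, 13, 14, 15, 27, 37, 38 or 41) and from 1 to 2 for 28 minus 19 dpf (1 without 19 or 26). Genotype calls at 28 dpf ranged from 0 to 1 (1 without array 38, CA058603) and in females from 0 to 5 (above 0 without 14, 18, 23, 34, 38 or 41), and members at an unadjusted p under 0.05 from 7 to 20 and in females from 13 to 28. CB497424 ranged from -0.070 to 0.17 and CK990563 from -0.16 to 0.023 for 28 minus 15 dpf, and the sex difference of CA064277 at 28 dpf from -0.051 (without array 33) to 1.42. Beside these, 1196 values of counts and medians moved by less than 1.5 times or 1 SD, but some of the settings could hardly move them. No hemoglobin reading reached the higher of the ceiling settings. Many arrays left out were of ages that the comparison did not use, and some counts were 0 under both settings. The number 1196 is therefore no measure of how firm the results are. The genotypes are paired within arrays, and with array as a fixed block in place of the correlation within arrays, 0 members were called between genotypes at 28 dpf and 14 had an unadjusted p under 0.05. Ages and sexes lay on different arrays with no replicate numbers shared, so for them no paired analysis was possible. The causes were not tested. Signal over background, lowest at 15 dpf, limits the dim members, and 4 embryos per group limit the rest.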
